A study of Mus musculus with 6 samples.

Results

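The genes described here are those that copy DNA and supply its building blocks. They were taken from a list of 46 symbols, each represented by the probe set with the highest mean signal among those annotated to that gene alone. Of these, 45 were found among 12393 genes on the array, and Gins2 was not found. They comprised 18 helicase and origin factors, 18 polymerase, clamp and ligation factors, 5 nucleotide enzymes and 4 regulators of entry into S phase. The 6 arrays, 1 for each sample, were hybridised with RNA of CD4-CD8- double negative (DN) cells from C57BL/6 mouse fetal thymus lobes. The lobes were taken at day 15 of gestation and kept in organ culture for 6 days, with 5 to 6 lobes on an insert and medium renewed every 2 days. TCDD (2,3,7,8-tetrachlorodibenzo-p-dioxin) was present at 10 nM on 3 arrays, 1 of thymocytes and 2 of emigrants numbered 1 and 2. The other 3 arrays, again 1 of thymocytes and 2 of emigrants, came from cultures with the solvent dioxane, whose dose of 0.1% by volume is given on the thymocyte label alone. Of the dioxane emigrant labels only 1 carries a number, which is 2, and the unnumbered array was taken here as number 1. Thymocytes were released from the lobes by grinding, and emigrants were collected in buffer flushed over them. All groups were pooled cells enriched with anti-CD4 and anti-CD8 magnetic beads to a stated purity above 95%. No label says that arrays came from separate cultures, so a p-value here reflects how far these arrays scatter, and part of that scatter may be technical.

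DNA replication starts where the origin recognition complex loads a ring of MCM proteins onto DNA in G1. Kinases and accessory factors then turn the ring into an active helicase in S phase, and polymerases primed by primase copy the opened strands while held by the sliding clamp PCNA. Ribonucleotide reductase, thymidylate synthase and related enzymes supply the deoxynucleotides, and many of these genes are transcribed at the start of S phase under E2F factors. DN thymocytes include populations that divide rapidly, and TCDD acts by binding the aryl hydrocarbon receptor (AHR), a transcription factor whose best known targets are detoxifying enzymes.

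Values are the log2 signals deposited by the authors, and per-array values are given in the order thymocytes, emigrants 1, emigrants 2. Levels at or under the highest bacterial control probe set of an array (4.32 to 4.92) cannot be told from background. Cyp1a1, the classic AHR target, measured 7.88, 4.22 and 5.98 with TCDD, against 3.99, 3.96 and 3.84 with dioxane, so the TCDD emigrant array numbered 1 was at background for it. The 6 AHR targets examined had median TCDD minus dioxane differences of 3.70 in thymocytes, 0.12 in emigrants 1 and 2.82 in emigrants 2. Of these 6, 5 were more than 2-fold higher with TCDD in thymocytes, 2 in emigrants 1 (Scin by 1.85 and Cyp1b1 by 1.24) and 5 in emigrants 2. Bcl11b, a T-lineage transcription factor, was at or under background on both emigrant arrays numbered 1. Rag1, which cuts receptor genes in early thymocytes, measured 7.00, 4.03 and 3.61 with TCDD, against 9.70, 3.72 and 9.99 with dioxane, so it was under background on the TCDD emigrant array numbered 2 as well. Dntt, the terminal transferase of early thymocytes, measured 9.10, 7.65 and 5.61 with TCDD, against 12.36, 7.52 and 11.96 with dioxane. Over 13 of 15 T-lineage markers the median level was 9.03, 5.97 and 7.06 with TCDD and 9.65, 6.48 and 8.97 with dioxane. Granulocyte precursor markers (10 of 10 found) had median levels of 5.12, 10.11 and 6.60 with TCDD, against 4.87, 8.70 and 5.64 with dioxane. Results below are given by pair and, for the counts they lead with, without the emigrant arrays numbered 1.

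Replication and nucleotide genes were lower with TCDD than with dioxane in thymocytes and in emigrants 2, and showed no common direction in emigrants 1. The median TCDD minus dioxane difference over the 45 genes was -0.73 in thymocytes, 0.07 in emigrants 1 and -0.90 in emigrants 2, against 0.01, -0.02 and -0.02 over all 12393 genes. Lower values were found for 42 of 45 genes in thymocytes, 21 in emigrants 1 and 44 in emigrants 2. Over all 12393 genes, 6011, 6422 and 6774 were lower in these pairs. Without Pola2 and Tyms, which were at or under background on most arrays (an exclusion chosen after seeing the data), the medians over 43 genes were -0.78, 0.01 and -0.91. A decrease of 2-fold or more, which is 1 log2 unit, was measured for 14 genes in thymocytes (2.79% of all genes), 2 in emigrants 1 (2.56% of all genes) and 20 in emigrants 2 (2.16% of all genes). No gene of the set was 2-fold higher in thymocytes or emigrants 2, and 2 were in emigrants 1. Of all 12393 genes, 351 were 2-fold higher in thymocytes, 454 in emigrants 1 and 425 in emigrants 2. The counts of 2-fold higher genes, and the 2 lower genes in emigrants 1, are near the share of all genes. The 14 and 20 lower genes were above that share, in a list chosen with earlier results of these data known. With 1 array a treatment in each pair, these differences have no replicate check. Fewer dividing cells in the pool and less RNA per dividing cell cannot be told apart in such bulk samples.

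**Figure D1:**
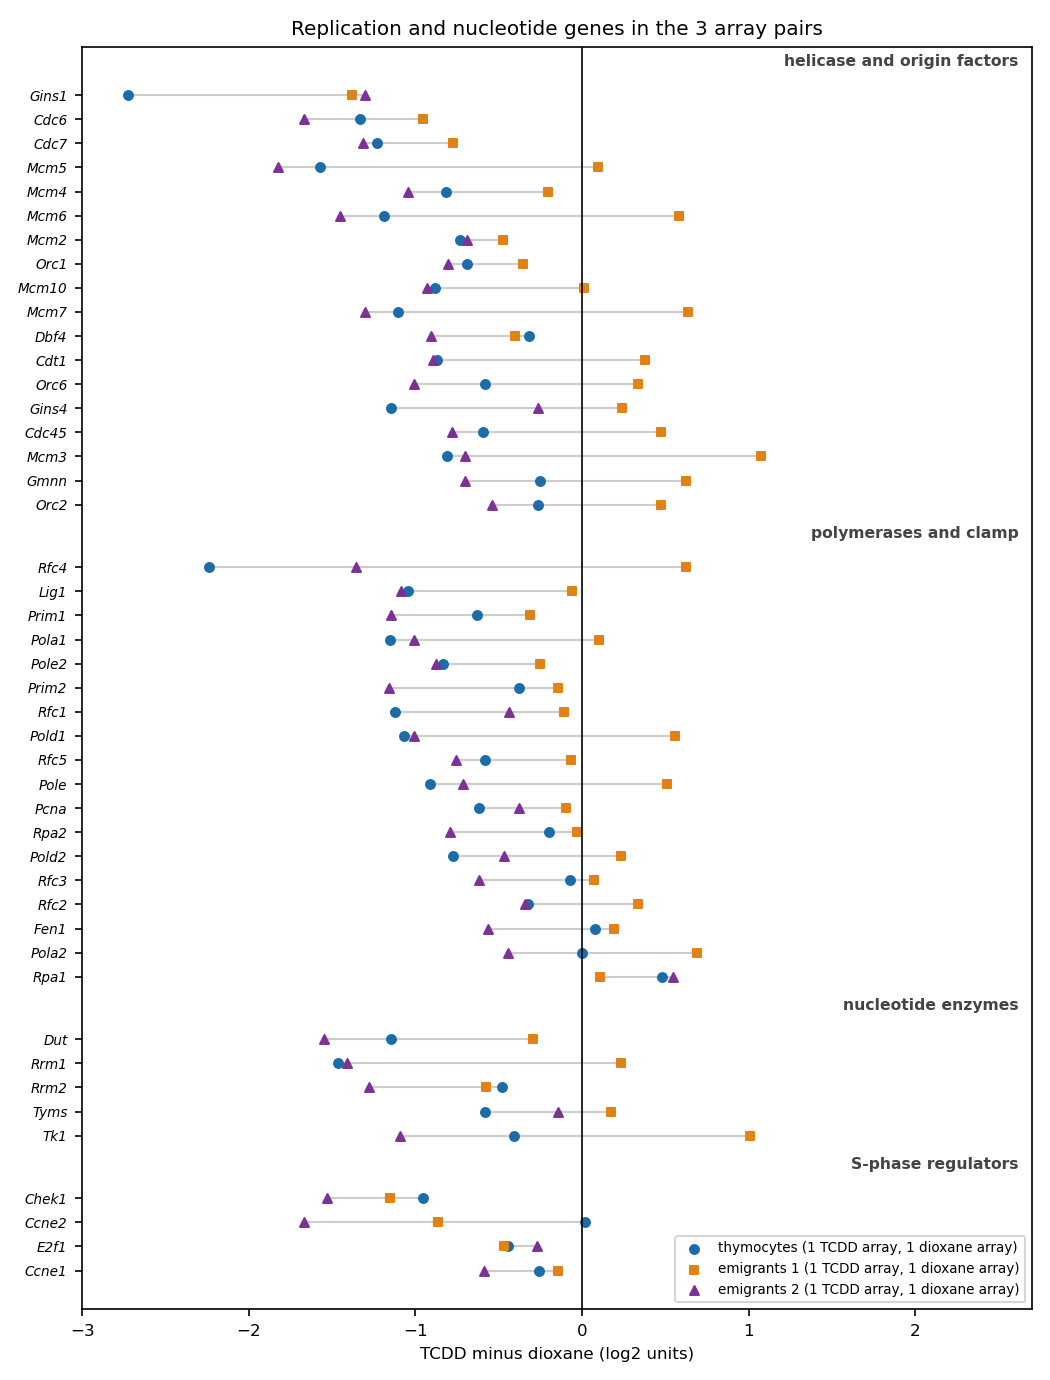
TCDD minus dioxane (x axis, log2 units) for each of the 45 genes (y axis, grouped by role), with 1 point for each array pair and a grey line over the range of the 3 pairs. Thymocytes (circles) and emigrants 2 (triangles) lie left of 0 for 42 genes, while emigrants 1 (squares) lie left of 0 for 21.

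Most of the genes were low in both of those pairs. Of the 45, 42 were lower in thymocytes and in emigrants 2 (32% of all genes), and 20 were lower in all 3 pairs (17.4% of all genes). With nearly all of the 45 lower in each of the 2 pairs, an overlap near 42 had to follow. Rpa1 was the only one of the 45 higher in all 3 pairs, on its brightest probe set. Across the 45 genes the thymocyte and emigrant 2 differences correlated with r = 0.54, close to the r = 0.53 across all 12393 genes. The thymocyte and emigrant 1 differences gave r = 0.19 over the 45 genes and 0.10 over all genes. These correlations are across genes of the same few arrays and describe those arrays only. Both arrays of emigrants 1 stood apart from their counterparts numbered 2. The dioxane array numbered 1 was lower than the one numbered 2 by a median of -0.35 over the 45 genes, and the TCDD array numbered 1 was higher than the TCDD array numbered 2 by a median of 0.44.

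**Figure D2:**
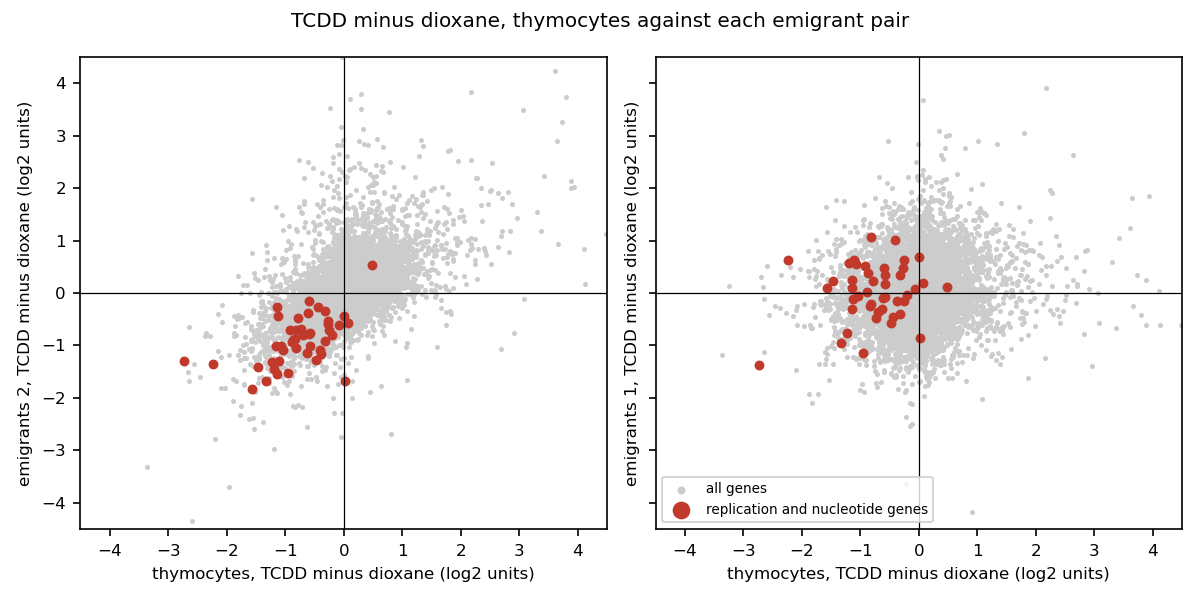
TCDD minus dioxane (log2 units) in thymocytes (x axis) against emigrants 2 (left panel, y axis) and emigrants 1 (right panel, y axis), for all genes in grey and the 45 replication and nucleotide genes in red. The red points gather at the lower left against emigrants 2 and spread above and below 0 against emigrants 1. Of all genes, 7 lie outside the drawn range.

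E2F factors bind short G+C-rich sites in promoters of S-phase genes, and promoter windows from 250 bases before to 50 bases after the start (RefSeq, GRCm38.p6) were found for 37 of the 45 genes. The letters TTTCCCGC or TTTGGCGC or TTTCGCGC or TTTGCCGC, read on either strand and with overlaps counted, were present in 11 of the 37 windows (29.7%), against 626 of 27025 windows, 1 for each gene with an entry (2.32%). The windows of the set also held more CG dinucleotides, with a median of 24 against 7 in all windows. Neither the difference in E2F letters nor the differences in the letters below were tested against this. The AHR core letters GCGTG, on either strand, were in 22 of 37 windows (59.5%) and in 32.5% of all windows. CCAAT was in 54.1% of the set and 37.9% of all, and the letters TTTGAA, the core of the element of genes expressed late in the cycle, in 13.5% and 18.1%. The 11 genes with E2F letters had a median TCDD minus dioxane difference over both cell sources of -0.62, against -0.44 for the 26 without. Such letters are descriptions of the windows and do not show binding. Promoters of 6 genes that hold these letters are shown, with the letters in capitals. Orc1, Cdc6, Pola1 and Pole2 were picked by outcome, as the genes with these letters and the smallest p over both sources in their roles. Mcm5 and Mcm6 were added by hand. Every gene with these letters was lower with TCDD in thymocytes and in emigrants 2, so that did not set the 6 apart. The first 2 belong to MCM ring subunits, the next to the origin factors Orc1 and Cdc6, and the last to polymerase subunits.
Mcm5 (chr8:75109259-75109558, plus strand): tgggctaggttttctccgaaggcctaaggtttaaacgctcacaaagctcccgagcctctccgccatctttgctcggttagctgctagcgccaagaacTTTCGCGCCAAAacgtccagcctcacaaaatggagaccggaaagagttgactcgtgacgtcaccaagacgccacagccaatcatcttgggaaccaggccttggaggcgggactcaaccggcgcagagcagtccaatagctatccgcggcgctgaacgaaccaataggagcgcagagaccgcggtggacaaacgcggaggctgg
Mcm6 (chr1:128359656-128359955, minus strand): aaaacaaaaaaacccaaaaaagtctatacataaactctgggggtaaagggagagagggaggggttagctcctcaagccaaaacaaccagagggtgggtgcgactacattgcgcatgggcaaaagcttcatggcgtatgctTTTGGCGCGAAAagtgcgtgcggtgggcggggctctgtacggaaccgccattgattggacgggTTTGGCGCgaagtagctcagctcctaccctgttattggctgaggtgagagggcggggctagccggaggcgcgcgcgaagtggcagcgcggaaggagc
Orc1 (chr4:108579204-108579503, plus strand): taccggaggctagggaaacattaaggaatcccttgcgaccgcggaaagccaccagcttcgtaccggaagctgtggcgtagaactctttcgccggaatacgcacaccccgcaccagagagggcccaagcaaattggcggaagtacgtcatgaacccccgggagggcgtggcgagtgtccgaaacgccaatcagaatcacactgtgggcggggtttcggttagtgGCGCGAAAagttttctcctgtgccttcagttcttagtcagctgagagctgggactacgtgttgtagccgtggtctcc
Cdc6 (chr11:98907901-98908200, plus strand): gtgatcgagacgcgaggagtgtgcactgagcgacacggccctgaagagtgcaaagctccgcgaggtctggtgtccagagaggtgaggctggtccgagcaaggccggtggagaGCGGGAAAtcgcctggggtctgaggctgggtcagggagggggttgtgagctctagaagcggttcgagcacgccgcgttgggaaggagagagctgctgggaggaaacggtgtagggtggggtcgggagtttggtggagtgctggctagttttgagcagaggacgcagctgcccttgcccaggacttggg
Pola1 (chrX:93632106-93632405, minus strand): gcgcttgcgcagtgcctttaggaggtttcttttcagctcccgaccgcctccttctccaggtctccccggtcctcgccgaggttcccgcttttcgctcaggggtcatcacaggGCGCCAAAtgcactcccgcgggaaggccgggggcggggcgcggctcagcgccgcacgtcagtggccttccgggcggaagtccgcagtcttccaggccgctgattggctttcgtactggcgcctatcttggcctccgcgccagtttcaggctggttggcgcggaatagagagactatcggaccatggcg
Pole2 (chr12:69228141-69228440, minus strand): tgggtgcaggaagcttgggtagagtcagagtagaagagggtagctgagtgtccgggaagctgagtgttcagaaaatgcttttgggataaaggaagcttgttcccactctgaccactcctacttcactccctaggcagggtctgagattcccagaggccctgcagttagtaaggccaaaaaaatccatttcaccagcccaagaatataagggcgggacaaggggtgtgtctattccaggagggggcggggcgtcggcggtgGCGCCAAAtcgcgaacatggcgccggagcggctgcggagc

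The MCM2 to MCM7 ring, the motor of the replicative helicase, had a median difference of -0.96 in thymocytes, 0.34 in emigrants 1 and -1.17 in emigrants 2, and all 6 subunits were lower in the first and the third of these pairs. Mcm5, whose promoter holds 2 overlapping matches, measured 5.51, 6.19 and 6.04 with TCDD, against 7.08, 6.09 and 7.86 with dioxane. The contrast lay in the dioxane arrays, of which number 1 read at the level of the TCDD arrays. Mcm6, with 3 matches in its promoter, followed the same course, at 7.23, 7.84 and 6.94 with TCDD, against 8.42, 7.25 and 8.40 with dioxane. Mcm7 measured 9.70, 10.69 and 9.49 with TCDD and 10.81, 10.05 and 10.79 with dioxane. For Mcm6 and Mcm7, on the probe sets used, the TCDD array numbered 1 exceeded its dioxane partner. The second probe set of Mcm6 (mean level 7.49) differed by -2.19, -0.02 and -1.58, so it showed no excess in emigrants 1. Mcm3 measured 6.81, 7.63 and 7.36 with TCDD, against 7.62, 6.56 and 8.06 with dioxane, and its excess of 1.08 in emigrants 1 was the largest of the 45 genes in that pair. On the probe sets used, Mcm2 and Mcm4 were the subunits lower in all 3 pairs. The second probe set of Mcm4 (mean level 7.88) differed by 0.15, 0.40 and -0.67, so it was lower in emigrants 2 alone. The second of Mcm2 (mean level 6.75) differed by -1.12, 0.20 and -1.34. Values below are those of the probe sets used. Mcm4 measured 8.82, 9.37 and 8.75 with TCDD, against 9.64, 9.57 and 9.79 with dioxane, so no TCDD array reached any dioxane array. Mcm2 measured 9.03, 9.06 and 8.25 with TCDD, against 9.76, 9.53 and 8.94 with dioxane, and here the emigrant 2 dioxane array lay below the other two TCDD arrays.

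**Figure D3:**
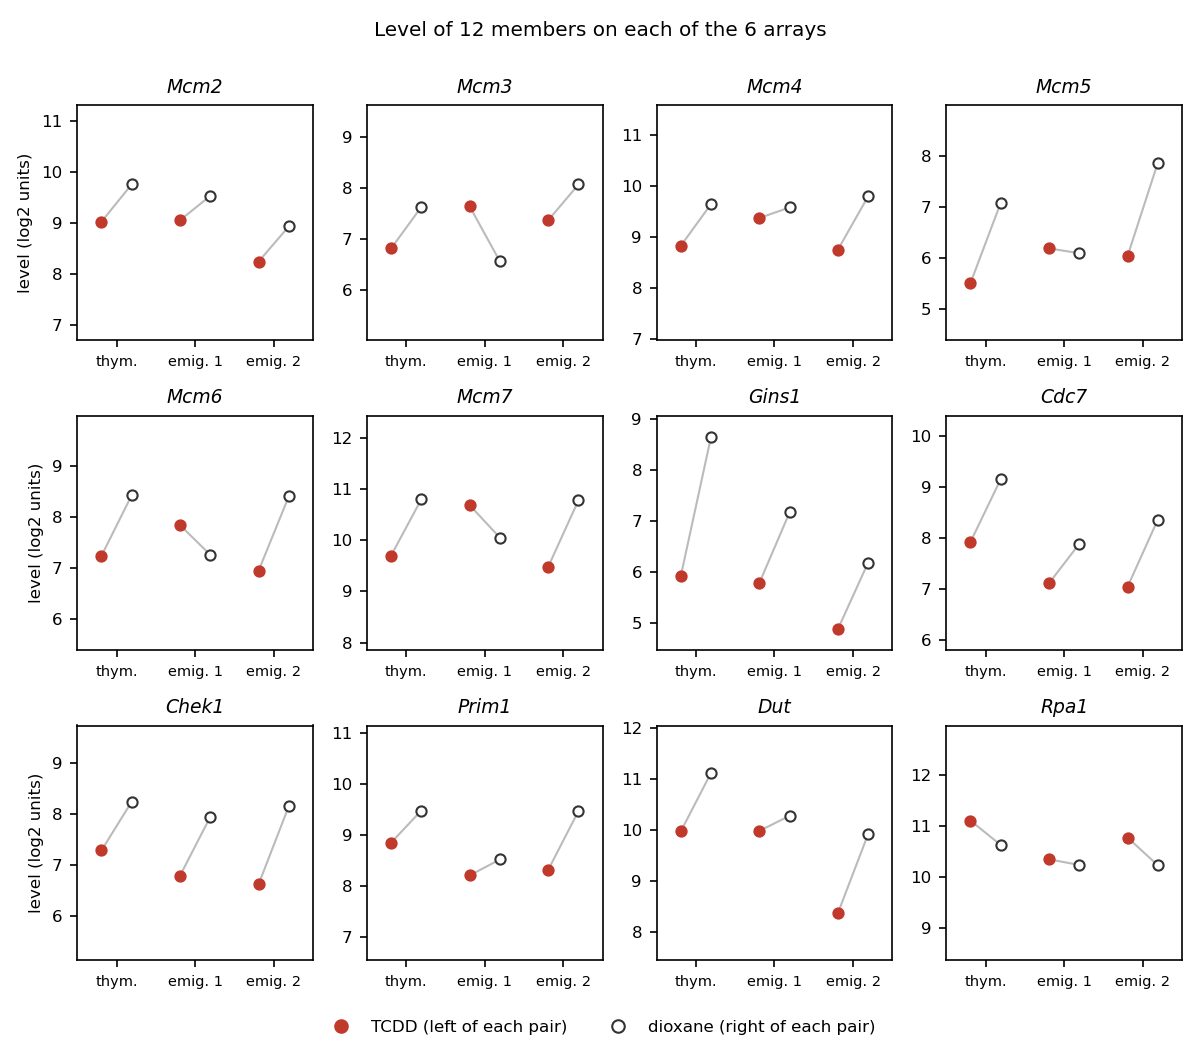
Level (y axis, log2 units) of 12 genes on the 6 arrays, with the TCDD array (filled) left of the dioxane array (open) of the same source and number (x axis), joined by a line. Every panel spans the same number of log2 units. Chek1, Gins1 and Mcm4 have all 3 filled points below all 3 open points, while Mcm3, Mcm6 and Mcm7 cross in emigrants 1 and Rpa1 runs the other way.

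Genes of origin recognition and licensing, which place the ring on DNA, were lower in thymocytes (median -0.64) and in emigrants 2 (-0.85) but not in emigrants 1 (0.36). Orc1, the ATP-binding subunit of the origin recognition complex, measured 4.92, 5.02 and 4.71 with TCDD, against 5.61, 5.38 and 5.52 with dioxane. All 3 TCDD arrays lay below all 3 dioxane arrays, close to the background range. Cdc6, which helps to load the ring, was named after its values were seen, at 6.06, 6.49 and 4.69 with TCDD, against 7.40, 7.44 and 6.36 with dioxane. Each pair was lower by 0.95 or more in size (-1.33, -0.95 and -1.67), though the emigrant 2 dioxane array lay below the TCDD array numbered 1. Gmnn encodes geminin, which binds the loading factor Cdt1 and prevents reloading, and measured 9.40, 9.24 and 8.27 with TCDD, against 9.65, 8.62 and 8.97 with dioxane. Its pairs differed in direction. The other 6 helicase and origin factors (Mcm10, Gins4, Cdc45, Cdt1, Orc2 and Orc6) were all lower in thymocytes, from -1.15 (Gins4) to -0.27 (Orc2), and in emigrants 2, from -1.01 (Orc6) to -0.27 (Gins4). In emigrants 1 they were all on the other side of 0, from 0.01 (Mcm10) to 0.48 (Orc2).

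Helicase activation factors were the sub-complex with the largest median decrease in thymocytes among the 6 examined (-1.02), with -0.20 in emigrants 1 and -0.92 in emigrants 2. Gins1, a subunit of the GINS complex that joins the ring and Cdc45, measured 5.93, 5.79 and 4.89 with TCDD, against 8.65, 7.17 and 6.19 with dioxane. The highest TCDD value was below the lowest dioxane value, and the thymocyte difference of -2.72 was the largest in size of any of the 45 genes in any pair. Cdc7, the kinase that fires origins by phosphorylating the ring, measured 7.93, 7.12 and 7.05 with TCDD, against 9.15, 7.89 and 8.36 with dioxane. Each pair was lower, by -1.23, -0.77 and -1.31, while the TCDD thymocyte array stood just above the emigrant 1 dioxane array. Dbf4, the regulatory subunit that activates Cdc7, measured 5.61, 6.63 and 6.48 with TCDD, against 5.92, 7.03 and 7.38 with dioxane. The kinase and its activator were thus both lower in each pair, with smaller differences for Dbf4.

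Polymerase and clamp genes had medians of -0.62 in thymocytes, 0.09 in emigrants 1 and -0.73 in emigrants 2. Prim1, the catalytic subunit of primase, measured 8.85, 8.21 and 8.32 with TCDD, against 9.48, 8.52 and 9.47 with dioxane. Pola1, the catalytic subunit of the polymerase that extends the primer, measured 7.21, 7.44 and 6.99 with TCDD, against 8.36, 7.33 and 8.00 with dioxane. On these probe sets Prim1 was lower in each pair, and Pola1 in all but emigrants 1. The second probe sets of Prim1 and Prim2 were higher in emigrants 1, by 0.16 and 0.23, and lower in the other pairs. Pcna, the sliding clamp, was among the 7 genes without overlap and was named for that after its values were seen. It measured 11.40, 11.56 and 11.24 with TCDD, against 12.02, 11.66 and 11.62 with dioxane. Rfc5, a subunit of the loader that opens the clamp, measured 6.35, 6.39 and 5.95 with TCDD, against 6.93, 6.46 and 6.71 with dioxane. Both had small gaps between the treatments, and the pairs numbered 1 were nearly equal. Rfc4, another loader subunit named after its values were seen, had the widest split between pairs, at -2.24, 0.62 and -1.35. The remaining polymerase subunits (Pold1, Pold2, Pole, Pole2 and Prim2), loader subunits (Rfc1, Rfc2 and Rfc3) and Rpa2 were all lower in thymocytes, from -1.12 (Rfc1) to -0.07 (Rfc3), and in emigrants 2, from -1.16 (Prim2) to -0.34 (Rfc2). In emigrants 1 they ran from -0.25 (Pole2) to 0.56 (Pold1), and Pole2, Prim2, Rfc1 and Rpa2 were below 0.

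Genes that process and seal the lagging strand and coat single strands had no common direction in thymocytes and emigrants 1, with medians of -0.06, 0.04 and -0.68. Lig1, the ligase that joins Okazaki fragments, measured 7.85, 7.81 and 7.14 with TCDD, against 8.89, 7.86 and 8.23 with dioxane. Its highest TCDD value, in thymocytes, was just below its lowest dioxane value. Fen1, the flap nuclease that acts before the ligase, measured 10.29, 10.86 and 9.70 with TCDD and 10.21, 10.66 and 10.27 with dioxane, so the treatments overlapped. Rpa1, the large subunit of the single-strand binding protein, measured 11.11, 10.35 and 10.78 with TCDD, against 10.63, 10.24 and 10.23 with dioxane. On this probe set it was higher in each pair, by 0.48, 0.11 and 0.54, although the emigrant 1 TCDD array lay below the dioxane thymocyte array. Its second probe set (mean level 7.18) differed by 0.45, -0.52 and 0.43, so it was lower in emigrants 1. Pola2, the accessory subunit of the primer polymerase, had 4 of its 6 values at or under background and is not read further.

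Of the 5 nucleotide enzymes, 4 gave usable levels, and all 4 were lower in thymocytes and in emigrants 2. Their medians were -0.81, -0.03 and -1.34, against -0.58, 0.17 and -1.28 with Tyms, which read under background on every array, included. Dut, which removes dUTP and so keeps uracil out of DNA, measured 9.97, 9.98 and 8.37 with TCDD, against 11.11, 10.27 and 9.92 with dioxane. Rrm2, the small subunit of ribonucleotide reductase, measured 10.40, 10.64 and 9.19 with TCDD, against 10.88, 11.21 and 10.47 with dioxane. Both were lower in each pair, and the TCDD array of emigrants 2 read lowest of the 6. Rrm1, the large subunit of the same enzyme, measured 7.87, 8.99 and 7.64 with TCDD, against 9.33, 8.76 and 9.05 with dioxane. Tk1, the thymidine salvage kinase, measured 5.68, 6.90 and 5.87 with TCDD, against 6.08, 5.90 and 6.96 with dioxane. On the probe sets used, Rrm1 and Tk1 were higher with TCDD in emigrants 1, by 0.23 and 1.01, and lower in the other pairs. The second probe set of Rrm1 (mean level 4.88, close to background) differed by -0.35, -0.24 and -0.59, so it was lower in emigrants 1 too. Tyms, thymidylate synthase, measured 3.17, 3.67 and 3.49 with TCDD and 3.75, 3.50 and 3.64 with dioxane on its brightest single-gene probe set, all under background, so it gave no usable level.

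The regulators of S-phase entry were all 4 lower in emigrants 1 (median -0.66), with medians of -0.35 in thymocytes and -1.06 in emigrants 2. Chek1, the kinase that restrains origin firing and protects stalled forks, measured 7.29, 6.79 and 6.63 with TCDD, against 8.24, 7.94 and 8.15 with dioxane. The 3 dioxane arrays lay close together, and every TCDD array was below all of them. E2f1, the transcription factor that activates many S-phase genes, measured 6.86, 7.02 and 6.62 with TCDD, against 7.30, 7.49 and 6.89 with dioxane. Ccne1 and Ccne2 encode E-type cyclins, which drive entry into S phase with Cdk2. Ccne1 measured 5.19, 5.78 and 5.36 with TCDD, against 5.45, 5.92 and 5.95 with dioxane. E2f1 was lower by -0.44, -0.47 and -0.27 and Ccne1 by -0.26, -0.14 and -0.59, both in each pair. Ccne2 measured 4.95, 6.20 and 4.69 with TCDD, against 4.93, 7.06 and 6.36 with dioxane, so it was lower only in the emigrant pairs. Both of its thymocyte values lay close to the background range, where a decrease could be hidden.

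Several genes were read by more than 1 probe set, which gave a check within the gene. The 45 genes had 83 single-gene probe sets, 26 genes had more than 1, and in 8 of these (Cdc7, Chek1, Fen1, Mcm3, Orc2, Pola2, Rfc1 and Rpa2) the mean difference of the 3 pairs differed in sign between probe sets. For Chek1 the 2 brighter probe sets agreed on a lower value in each pair (-0.95, -1.15 and -1.53 on the brightest, -0.78, -0.52 and -1.55 on the next). Its other 2 probe sets and the second of Cdc7 had mean levels of 4.03, 3.64 and 4.20, near background. The 4 probe sets of Mcm7 shared 1 pattern, with differences from -1.85 to -0.56 in thymocytes, 0.41 to 0.97 in emigrants 1 and -1.84 to -1.23 in emigrants 2. The 5 probe sets of Mcm3 were likewise all higher in emigrants 1, by 0.38 to 1.08, and all lower in the other pairs. A mean over the pairs can hide a pair that differs, as in the second probe sets of Mcm2, Mcm4, Mcm6, Rpa1, Rrm1, Prim1 and Prim2.

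Whether TCDD and dioxane differed beyond the spread of the arrays was tested with limma on all 6 arrays with cell source in the fit. No gene of the 45, and 0 of 12393 genes (0% of all genes), passed an adjusted p of 0.05. The smallest adjusted p among the 45 was 0.742, and over all genes it was 0.483. The 45 genes had a median difference of -0.54 with a median standard error of 0.285, and 43 of them were below 0. By role, the median was -0.59 for helicase and origin factors, -0.42 for polymerase and clamp genes, -0.78 for nucleotide enzymes (-0.83 without Tyms) and -0.61 for regulators. At an unadjusted p under 0.05, 8 genes were lower (2.63% of all genes) and none was higher. These were Chek1, Cdc7, Gins1, Orc1, Mcm4, Dbf4, Lig1 and Prim1. In limma's fit Chek1 differed by -1.21 ± 0.17 (SE, adjusted p = 0.742), and Cdc7 by -1.10 ± 0.19 (adjusted p = 0.742). Gins1 had the largest fitted difference, -1.80 ± 0.45 (limma adjusted p = 0.811). Rpa1 stood at 0.38 ± 0.18 (limma adjusted p = 0.986), Dut at -0.996 ± 0.43 (adjusted p = 0.968) and Mcm5 at -1.10 ± 0.48 (adjusted p = 0.969). In 7 genes (Chek1, Gins1, Mcm4, Orc1, Lig1, Rfc5 and Pcna) all 3 TCDD arrays were below all 3 dioxane arrays (4.61% of all genes).

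The count of 8 genes depended on single arrays. It was 17 without the TCDD emigrant array numbered 1 (3.11% of all genes) and 21 without the dioxane emigrant array numbered 1 (4.91% of all genes). It was 4 without the TCDD emigrant array numbered 2 (2.19% of all genes) and 6 without the dioxane emigrant array numbered 2 (2.22% of all genes). Leaving out either thymocyte array gave 3 (0.815% of all genes). The source term then absorbs the remaining thymocyte array, so this is the same fit as that in emigrants alone, given below. Rpa1 was the 1 gene higher at that threshold, without the TCDD emigrant array numbered 1. Leaving out both emigrant arrays numbered 1, 44 of the 45 genes were lower with TCDD, with a median of -0.78. In that limma fit 36 were lower at an unadjusted p under 0.05 (9.07% of all genes), and again none passed adjustment (smallest adjusted p = 0.128). Leaving out both arrays numbered 2 gave a median of -0.36, with 36 lower and 5 at an unadjusted p under 0.05 (2.82% of all genes, smallest adjusted p = 0.699). The alternatives that left out single arrays kept the median between -0.67 and -0.37.

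In emigrants alone, 2 TCDD arrays against 2 dioxane arrays, limma called 0 of the 45 genes and 0 of 12393 (0% of all genes, smallest adjusted p = 1). The median was -0.37, with 41 of 45 below 0. Chek1 (-1.34 ± 0.24), Cdc7 (-1.04 ± 0.27) and Gins1 (-1.34 ± 0.49) were the genes at an unadjusted p under 0.05 in limma's fit (0.815% of all genes on the lower side). Dropping 1 emigrant array at a time moved this median. It was -0.68 and -0.64 with the TCDD or the dioxane array numbered 1 dropped, and -0.13 and -0.18 with the TCDD or the dioxane array numbered 2 dropped. The genes lower at an unadjusted p under 0.05 numbered 8 (0.839% of all genes) and 7 (1.59% of all genes) with the TCDD or the dioxane array numbered 1 dropped. They numbered 1 (0.936% of all genes) and 2 (1.93% of all genes) with the TCDD or the dioxane array numbered 2 dropped, and in the last of these fits Mcm3 was higher.

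Levels in emigrants were close to those in thymocytes for most of the genes. The median emigrant minus thymocyte difference, with treatment in the fit, was -0.10, with 29 of 45 below 0, and limma called 0 of the 45 genes (0% of all genes). The median changed sign without the dioxane thymocyte array (0.0006) or the dioxane emigrant array numbered 1 (0.0204). At an unadjusted p under 0.05, 4 genes were lower in emigrants (3.9% of all genes) and 1 was higher (3.2% of all genes). Dbf4 was the higher one, at 6.63 and 6.48 with TCDD and 7.03 and 7.38 with dioxane in emigrants, against 5.61 with TCDD and 5.92 with dioxane in thymocytes. Every emigrant array exceeded both thymocyte arrays (1.11, limma adjusted p = 0.32). Cdc7, its kinase partner, ran the other way, at -0.93 (limma adjusted p = 0.41). Gins1 (-1.28), Pold2, a subunit of the lagging-strand polymerase (-0.86), and Rpa1 (-0.47) were also lower in emigrants, at limma adjusted p of 0.676, 0.548 and 0.7. The TCDD difference itself was compared between sources by an interaction term. It called 0 of 45 genes (0% of all genes), and none of the 45 had an unadjusted p under 0.05 in limma's fit (0.783% of all genes). The median interaction was 0.25, or -0.02 without the TCDD emigrant array numbered 1.

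The wider replication and nucleotide machinery was lower in the same 2 pairs, with smaller medians. Of 72 further symbols 54 were found, with medians of -0.51 in thymocytes, -0.10 in emigrants 1 and -0.70 in emigrants 2. They were lower for 41, 30 and 48 genes in these pairs and for 24 in all 3. None of the 54 passed in the fit over both sources (limma smallest adjusted p = 0.742), while 9 were lower (2.63% of all genes) and 1 higher (2.69% of all genes) at an unadjusted p under 0.05. Ppat, the first committed enzyme of purine synthesis, measured 6.02, 6.17 and 5.75 with TCDD, against 7.55, 7.82 and 6.96 with dioxane. Uhrf1, which brings maintenance methylation to new strands, measured 7.93, 7.02 and 6.55 with TCDD, against 8.85, 7.78 and 8.48 with dioxane. Ppat did not overlap between treatments and Uhrf1 did, by a narrow margin. Their fitted differences were -1.47 ± 0.27 and -1.20 ± 0.26 (limma adjusted p = 0.742 and 0.811). Pold4, a small polymerase subunit, was the gene higher at an unadjusted p under 0.05, with 5.98, 6.27 and 6.01 with TCDD, against 5.36, 4.86 and 5.84 with dioxane. Samhd1, which degrades deoxynucleotides in non-dividing cells, measured 8.87, 9.24 and 9.87 with TCDD, against 7.35, 8.72 and 9.82 with dioxane, a fitted difference of 0.69 ± 0.42.

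Proliferation genes outside replication had the same pattern over the pairs. Over 12 of 13 such genes the medians were -0.50, 0.11 and -1.16, and 12, 5 and 12 of them were lower in thymocytes, emigrants 1 and emigrants 2. Markers of other cells differed between treatments too. T-lineage markers had medians of -0.54, -0.39 and -0.39. Granulocyte precursor markers had medians of -0.08, 1.26 and 1.02, and macrophage and dendritic cell markers (12 of 12 found) of -0.13, 0.50 and 1.74. Fibroblast and endothelial markers (7 of 7 found) had medians of -0.03, 0.38 and 1.40. The medians of myeloid and stromal markers were thus higher with TCDD in emigrants, and near equal in thymocytes. Not every gene followed. In emigrants 1, 1 of 10 granulocyte, 3 of 12 macrophage and dendritic and 3 of 7 stromal genes were lower. In emigrants 2 these counts were 3, 0 and 0, and Mpo, Elane, Prtn3 and Ctsg lay between -0.20 and 0.03. Of the stromal genes, 2 were at or under background on every array. Medians were -0.06, -0.38 and -0.06 for erythroid markers (6 of 9 found), 1.06, 0.41 and 0.31 for gamma-delta T-cell markers (4 of 8) and 0.04, -0.07 and -0.01 for B-lineage markers (6 of 7). They were 0.28, -0.00 and -0.28 for NK and innate lymphoid markers (7 of 8) and 0.09, -0.25 and -0.05 for thymic epithelium markers (5 of 6). The median level of macrophage and dendritic cell markers was 5.54, 8.88 and 8.41 with TCDD, against 5.55, 8.18 and 6.63 with dioxane. RNA measures also differed between treatments. The actin 3' minus 5' signal was 4.15, 3.77 and 3.36 with TCDD, against 3.48, 3.06 and 3.01 with dioxane, and the Gapdh measure was 5.86, 5.60 and 4.75 against 6.10, 4.75 and 4.69. The 18 hybridisation spike-in probe sets differed by medians of 1.00, -0.39 and -0.31. The part of these markers and RNA measures in the results was not tested, in thymocytes or in emigrants.

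**Figure D4:**
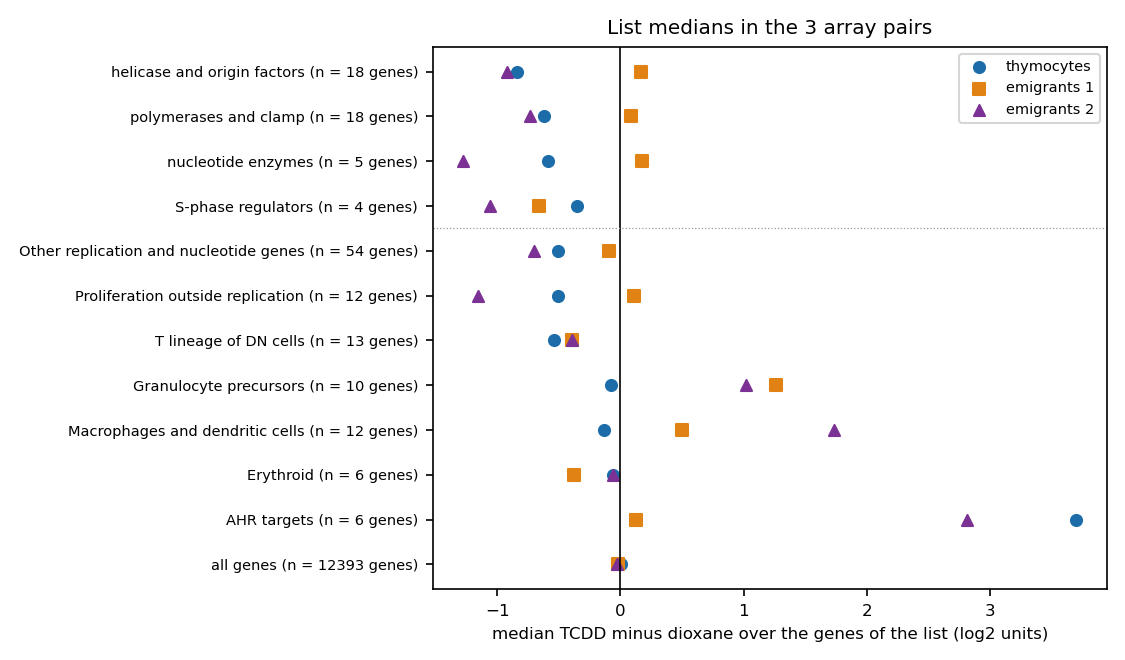
Median TCDD minus dioxane (x axis, log2 units) over the genes of each list (y axis, with the number of genes) in the 3 array pairs. The 4 groups of replication and nucleotide genes above the dotted line and the proliferation genes lie left of 0 in thymocytes and emigrants 2, where AHR targets lie far to the right, and all genes lie at 0.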

How the data were processed

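The deposited values are log2 signals made by the authors with RMA per the submitters' processing notes, which corrects background, normalises across arrays and summarises probes, and with the affy package of Bioconductor per the series design text. Their versions were not given in the sources used here. No detection calls come with RMA, and it compresses differences of dim genes. Values were used as deposited, and the number of arrays limits the precision.

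Of 22690 probe sets, 64 controls were left out, as were 691 annotated to several genes and 1555 to no gene, and 20380 single-gene probe sets gave 12393 genes, each by its probe set with the highest mean (4956 had more than 1). Gene names came from the platform annotation of the array. Pairs were arrays of the same source and number, with the unnumbered dioxane emigrant array taken as number 1. Tests used limma 3.58.1 in R 4.3.3 (lmFit and eBayes), with Benjamini-Hochberg adjustment over all genes and a threshold of 0.05, fitted over both sources with cell source as a term, in emigrants, between sources with treatment as a term, and as an interaction. The procedure was run on simulated data with independent noise between arrays. That run checked only that the largest simulated differences were recovered, and left the interaction out of the check. Recovery of differences of the size seen here is not given. Thymocytes have 1 array a treatment and no test of their own. An exact permutation test of 3 arrays against 3 cannot go below 0.1 and was not used.

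The members and all gene lists were chosen with earlier results of these data known. Values on every array are given for Mcm2 to Mcm7 and, in each of the 4 roles, for the 5 genes with the smallest and the 2 with the largest p over both sources. Members called in a comparison, with probe sets of opposite sign, or under background could also be named. Further lists comprised other replication genes, proliferation genes, AHR targets and markers of T-lineage, granulocyte precursor, macrophage and dendritic, erythroid, B, NK, gamma-delta T, stromal and epithelial cells. Alternatives were other normalisations, filters, probe set rules, a replicate block and left-out arrays.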

Additional observations from a re-analysis of the deposited data

Results flagged for a closer look

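Ccne2, an E-type cyclin, was lower with TCDD in emigrants and nearly equal in thymocytes. Its thymocyte levels of 4.95 and 4.93 were close to the background range, where a decrease could be hidden. It was lower in both emigrant pairs (-0.86 and -1.67) and 0.02 higher in the thymocyte pair, and the difference of the TCDD effect, emigrants minus thymocytes, was -1.28. The interaction term of limma's fit gave an adjusted p of 1, so the difference between sources did not pass.

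A probe set annotated to both Tyms-ps and Tyms, left out because it carries 2 genes, read well above background on every array, unlike the single-gene probe sets of Tyms. It measured 8.06, 8.07 and 7.38 with TCDD, against 7.84, 6.86 and 8.23 with dioxane, in the order thymocytes, emigrants 1, emigrants 2. TCDD minus dioxane was 0.22 in thymocytes, 1.21 in emigrants 1 and -0.84 in emigrants 2. Signals of the gene and its pseudogene cannot be told apart on it.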

How the results depend on the processing

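No gene was called for TCDD against dioxane over both sources, in emigrants, or for the interaction under any alternative run. For emigrants against thymocytes, 0 genes were called, against 225 with both emigrant arrays numbered 2 left out and 0 to 7 when single arrays were left out. None of these was a replication or nucleotide gene. The emigrants 1 median of 0.07 was -0.0101 with genes of below-median level removed and -0.0048 with all probe sets of a gene averaged. With single arrays left out, the median between sources ran from -0.3514 to 0.0204 and that of the interaction from -0.0187 to 0.6421. The medians of the 4 roles over both sources kept their direction in 68 of 68 alternatives. Leaving out Tyms, chosen after seeing the data, turned the emigrants 1 median of the nucleotide enzymes to -0.0319, against 0.1712 with it.

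Named members over both sources kept direction in 438 alternatives and reversed in 18. With single arrays left out, Fen1 ran from -0.4015 to 0.2575, Pola2 from -0.298 to 0.4369, Mcm3 from -0.6711 to 0.1904, Tyms from -0.2927 to 0.013, Gmnn from -0.4087 to 0.1459 and Tk1 from -0.5038 to 0.1039. Averaging probe sets gave 0.1274 for Fen1 and -0.0352 for Pola2. Leaving out both arrays numbered 1 gave -0.2222 for Pola2, and leaving out both numbered 2 gave 0.1357 for Fen1, 0.1839 for Gmnn, 0.1322 for Mcm3 and 0.2992 for Tk1. The causes were not tested.

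The TCDD emigrant labels carry the numbers 1 and 2, and 1 dioxane emigrant label carries the number 2. The other dioxane emigrant label has no number and was taken as 1. No label says that a number marks a shared culture. Deviations of same-numbered emigrant arrays correlated with r = 0.5601 over 12393 genes, in 2 pairs only. With the replicate block, 0 genes were called over both sources and 0 in emigrants, and members at an unadjusted p under 0.05 numbered 15 against 8 over both sources (limma smallest adjusted p = 0.282) and 8 against 3 in emigrants (0.715), all lower. The block also raised the share of all genes lower at that threshold, to 5.24% against 2.63% over both sources and to 2.36% against 0.815% in emigrants. Limits are the 6 arrays, the single thymocyte array of each treatment and dim probe sets, whose differences background bounds.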
